A study of Homo sapiens with 6 samples.

Results

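The cancer-testis antigen families are a set of mostly X-linked gene families. The 70 genes described here were taken by name from the 57341 named genes of the count table: numbered members of MAGEA, MAGEB, MAGEC, GAGE, XAGE, PAGE and SSX, the VCX genes, CTAG1B, CTAG2 and PRAME. Messenger RNA was measured by paired-end sequencing in the human adrenocortical carcinoma line H295R, as parental cells in 3 libraries, and in H295R-PM-Ptc+ cells, a subpopulation of this line, in 3 libraries. H295R-PM-Ptc+ cells were sorted from H295R by flow cytometry with an antibody to the Hedgehog receptor Ptch1 at the plasma membrane and were then amplified, so they descend from sorted cells of one line. Both kinds of cells were grown in the same medium without treatment, and nothing states that the 3 libraries of a group came from separate cultures, so the p-values measure the spread between these libraries, which may be technical.

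The group names of the deposited libraries need care. PTCH1, the gene whose protein was sorted for, had 441, 559 and 579 counts in the H295R-labelled libraries and 248, 326 and 319 in those with the H295R-PM-Ptc+ label, a log2 fold change of -0.81 (SE 0.147, edgeR adjusted p = 0.0207). The p rose above 0.05 when H295R replicate 2 (0.0799), H295R replicate 3 (0.0921) or H295R-PM-Ptc+ replicate 2 (0.0618) was left out. In the normalised counts published with the study, every column corresponded best to the deposited library of the same replicate code but the opposite group name. Which names are right was not tested here. Groups are called by their deposited labels throughout, and every direction given here would turn over if the names were exchanged. Words such as rose, fell or went from compare the H295R-PM-Ptc+ label with the H295R label only. They do not state a change from parental to sorted cells.

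Cancer-testis genes are normally transcribed in germ cells of the testis and are silent in most other adult tissues, where DNA methylation of their promoters helps to keep them off. Many tumours express some of them, and because germ cells present little antigen, their proteins are studied as targets for vaccines and T cells. The MAGE proteins bind RING-type ubiquitin ligases through a shared domain, SSX proteins act with chromatin repressors, PRAME is a substrate receptor of a cullin ubiquitin ligase, and the GAGE, XAGE and PAGE proteins are small and largely disordered.

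Between 23264403 and 25813247 fragments were counted per library, and the members took 0.126% to 0.146% of them. The adrenal cortex origin was visible in NR5A1, the master transcription factor of steroidogenic cells, with 8273 to 9729 counts in each library, although the adrenal marker MLANA was at 0 throughout. None of 14 germ cell markers had enough counts to be tested, 11 of them had no library over 3 counts, 6 of them were at 0 in every library, and their summed level was 0.202 to 0.472 CPM (counts scaled to a common library size) in the H295R-labelled libraries and 0.442 to 0.626 in those with the H295R-PM-Ptc+ label. Of 12 leukocyte and stroma markers, 7 had no library over 3 counts and 3 were at 0, with a summed level of 7.60 to 9.58 CPM and 10.5 to 11.9 CPM.

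Near-identical copies make up much of these families, and repeats and promoters were drawn from the reference to show how the copies differ. The VCX genes carry a tandem repeat with a unit of 30 bases, located as the longest stretch in which at least 27 of 30 bases matched those of the next unit. The stretch spanned 430 bases in VCX3B (chrX:8465949-8466378, plus strand), 258 bases in VCX (chrX:7843718-7843975, plus strand), 241 bases in VCX3A (chrX:6533759-6533999, minus strand) and 77 bases in VCX2 (chrX:8170074-8170150, minus strand) of hg38, or 14.3, 8.60, 8.03 and 2.57 units. The first unit, written 5′ to 3′, was the same in VCX3A and VCX3B.
VCX3A and VCX3B, first repeat unit: cccctgagtcaggagagcgagctggaggaa

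Promoter windows were read from RefSeq (GRCh38.p14, 250 bases before to 50 after each start). A window was found for 56 of the 70 member symbols, 74 windows in all, with a median of 12 CpG dinucleotides against 14 over 35116 windows of all genes (quartiles 4 and 28). The following windows belong to the members on which the results turn, written 5′ to 3′ on the gene's strand with each CG in capitals, since CpG methylation is the best known control of these genes. No methylation was measured here.
VCX (chrX:7842921-7843220, plus strand): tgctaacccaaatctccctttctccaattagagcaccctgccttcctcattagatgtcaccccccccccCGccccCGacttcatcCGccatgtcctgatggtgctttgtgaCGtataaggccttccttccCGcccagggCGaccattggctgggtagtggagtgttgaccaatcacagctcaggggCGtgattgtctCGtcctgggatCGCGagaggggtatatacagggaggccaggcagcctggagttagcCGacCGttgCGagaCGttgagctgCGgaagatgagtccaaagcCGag
VCX3A (chrX:6535069-6535368, minus strand): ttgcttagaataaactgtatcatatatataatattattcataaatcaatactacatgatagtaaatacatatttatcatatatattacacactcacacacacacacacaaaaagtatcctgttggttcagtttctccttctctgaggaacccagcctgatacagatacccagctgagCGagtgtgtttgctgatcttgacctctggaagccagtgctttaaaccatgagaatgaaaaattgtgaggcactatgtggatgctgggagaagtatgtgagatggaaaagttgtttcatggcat
VCX2 (chrX:8171218-8171517, minus strand): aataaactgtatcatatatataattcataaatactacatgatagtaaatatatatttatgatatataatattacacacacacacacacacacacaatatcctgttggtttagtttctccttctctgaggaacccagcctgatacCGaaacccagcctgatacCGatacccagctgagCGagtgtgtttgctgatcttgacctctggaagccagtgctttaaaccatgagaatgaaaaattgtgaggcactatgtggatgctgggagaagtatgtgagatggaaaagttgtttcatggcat
VCX3B (chrX:8464580-8464879, plus strand): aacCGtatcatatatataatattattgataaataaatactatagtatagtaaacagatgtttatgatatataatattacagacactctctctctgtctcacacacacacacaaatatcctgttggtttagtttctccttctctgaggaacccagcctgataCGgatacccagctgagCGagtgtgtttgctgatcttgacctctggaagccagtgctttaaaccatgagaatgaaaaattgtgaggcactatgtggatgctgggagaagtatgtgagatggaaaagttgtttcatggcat
GAGE2A (chrX:49589246-49589545, plus strand): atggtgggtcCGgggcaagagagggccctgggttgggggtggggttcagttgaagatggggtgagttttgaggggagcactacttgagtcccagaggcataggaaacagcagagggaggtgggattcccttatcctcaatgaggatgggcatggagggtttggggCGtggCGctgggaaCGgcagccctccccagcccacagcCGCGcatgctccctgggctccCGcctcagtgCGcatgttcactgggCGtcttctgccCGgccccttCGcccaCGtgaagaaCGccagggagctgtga
XAGE1A (chrX:52495627-52495926, plus strand): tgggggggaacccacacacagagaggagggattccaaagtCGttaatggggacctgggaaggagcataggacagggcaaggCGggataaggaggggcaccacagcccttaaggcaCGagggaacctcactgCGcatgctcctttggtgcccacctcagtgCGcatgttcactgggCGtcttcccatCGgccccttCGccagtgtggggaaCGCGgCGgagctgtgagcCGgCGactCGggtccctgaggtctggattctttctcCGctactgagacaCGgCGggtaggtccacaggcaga
MAGEA3 (chrX:152698544-152698843, plus strand): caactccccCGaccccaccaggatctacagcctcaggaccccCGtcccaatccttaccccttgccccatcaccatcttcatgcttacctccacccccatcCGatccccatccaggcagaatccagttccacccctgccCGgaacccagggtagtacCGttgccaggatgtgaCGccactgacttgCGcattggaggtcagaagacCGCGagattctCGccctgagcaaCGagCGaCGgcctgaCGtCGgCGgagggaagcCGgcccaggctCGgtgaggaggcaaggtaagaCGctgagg

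The window of VCX held 16 CpGs and was 48.7% to 49.9% identical to those of the other 3 VCX genes. The windows of VCX2, VCX3A and VCX3B held 3, 1 and 3 CpGs and were 83.0% to 86.9% identical to each other. These 3 windows span the start of their genes as counted. The VCX window (chrX:7842921-7843220) instead lies inside the gene as counted (chrX:7842262-7844143), at another annotated start. The VCX window therefore need not match the others in position, and its identity and CpG count cannot be read as divergence of one promoter. The GAGE2A window, with 13 CpGs, was identical base for base to a window of GAGE1, GAGE12C, GAGE12D, GAGE12E, GAGE12F, GAGE12H and GAGE12J. The same was true of XAGE1A and XAGE1B (17 CpGs) and of MAGEA3 and MAGEA6 (19 CpGs). The motif CCGGAA, searched on both strands, occurred in the shared window of MAGEA3 and MAGEA6 and in none of the other 6 windows printed, and 17.2% of all windows held it.

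Because reads that map to several places were counted once, at the position the aligner chose as primary, identical copies cannot be told apart by their counts. For each member, every exon stretch of 75 bases, the read length, was looked up in the genome. All such stretches of MAGEA1, MAGEC2, MAGEB17, PAGE1 and PRAME occurred once, as did 99.4% of those of MAGEA10 and 61.5% of those of CTAG2. By contrast, none of the stretches of XAGE1A, XAGE1B, MAGEA2 or MAGEA2B was found only once, and the share was 7.44% for SSX2, 9.47% for MAGEA9B, 27.2% for GAGE2A and 22.0% to 38.4% for the VCX genes. Sums over copies are therefore given beside the single genes, without a test.

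**Figure D1:**
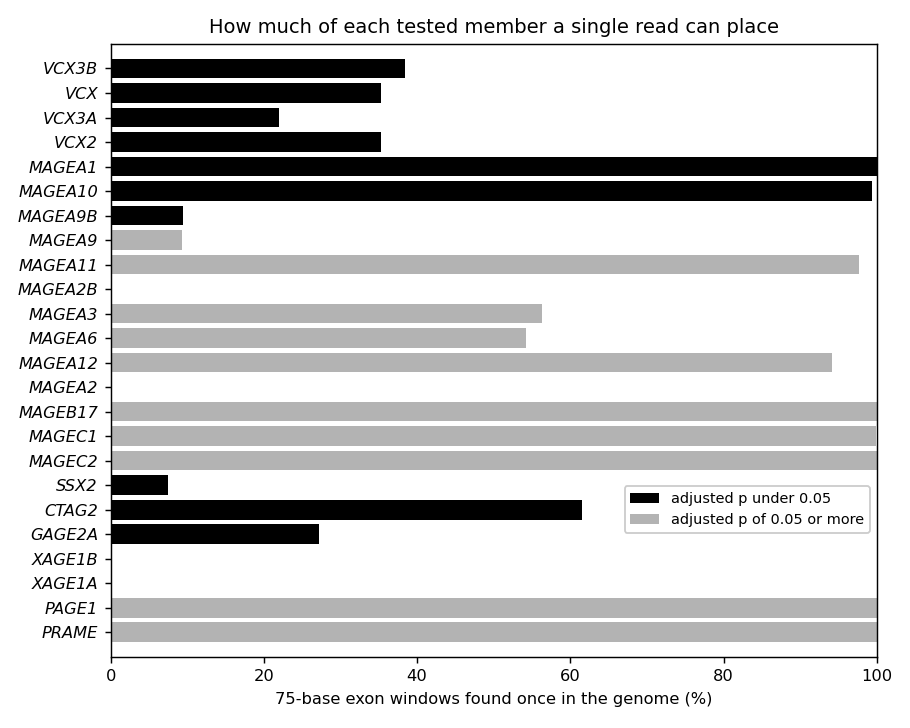
The bars give, for each of the 24 tested members, the percentage of 75-base exon stretches that occur once in the genome, in black for members with an adjusted p under 0.05 and in grey for the others. MAGEA10 and MAGEA1 reach 99.4% and 100%, while XAGE1A, XAGE1B, MAGEA2 and MAGEA2B stand at 0.

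Of the 70 members, 45 had at least 1 library over 3 counts and 25 did not, 10 of which were at 0 in every library. All 3 MAGEC genes, all 4 VCX genes and PRAME were detected in this sense, together with 11 of 15 MAGEA genes (2 of the 15 are pseudogenes that the naming pattern includes), 8 of 13 GAGE, 4 of 5 XAGE, 4 of 6 PAGE, 5 of 10 MAGEB, 4 of 11 SSX and 1 of 2 CTAG genes. That limit of 3 counts in a library corresponds, on average, to 0.122 CPM in the H295R-labelled libraries and 0.123 CPM in those with the H295R-PM-Ptc+ label. CTAG1B, which encodes the vaccine target NY-ESO-1, had 1, 0 and 1 counts in the H295R-labelled libraries and 3, 3 and 2 in those with the H295R-PM-Ptc+ label and was not detected by this limit. None of its exon stretches occurs once in the genome, and CTAG1A, a second gene for the same antigen that is not among the 70, had 0, 1 and 1 counts against 4, 2 and 4, so these counts do not settle whether NY-ESO-1 was transcribed. All members lie on the X chromosome except PRAME, which lies on chromosome 22.

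The repertoire was dominated by a few MAGE genes. MAGEA2, MAGEA2B, MAGEA3, MAGEA6 and MAGEA12, which lie side by side near the end of the long arm of the X chromosome, made up 67.4% of the summed CPM of all members, the MAGEC family 18.8% and PRAME 7.81%. Levels of different genes were compared as CPM per kilobase of exon length, and for MAGEA2, MAGEA2B, XAGE1A and XAGE1B, none of whose exon stretches occurs once, the level of a single copy depends on where the aligner placed shared reads. MAGEA3, which binds the ubiquitin ligase TRIM28, had the highest level, 185 ± 10.1 CPM per kilobase (SD, n = 3) in the H295R-labelled libraries and 181 ± 7.43 in those with the H295R-PM-Ptc+ label. MAGEA6 (96.8 ± 5.44), MAGEA2B (92.7 ± 4.60) and MAGEA12 (82.2 ± 2.67) followed in the H295R-labelled libraries, then MAGEC2 (74.5 ± 2.70), MAGEC1 (22.5 ± 1.80) and PRAME (16.9 ± 1.13), and MAGEA6 and MAGEA2B lay within their SDs of each other. MAGEA2, all of whose exon stretches occur in MAGEA2B, stood at 10.7 ± 0.710. In the H295R-labelled libraries the smaller families stood below PRAME on the same scale, as read from GAGE2A (11.6 ± 0.794), VCX (7.23 ± 1.54), XAGE1A (6.30 ± 0.197), PAGE1 (1.22 ± 0.115) and, among the MAGEB genes, MAGEB17 (1.12 ± 0.135). CTAG2 stood at 0.518 ± 0.0626 and SSX2 at 0.298 ± 0.0676. This order did not hold for VCX in the libraries with the H295R-PM-Ptc+ label. There VCX stood at 33.9 ± 2.52, above MAGEC1 (27.9 ± 2.26) and PRAME (14.6 ± 0.351).

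**Figure D2:**
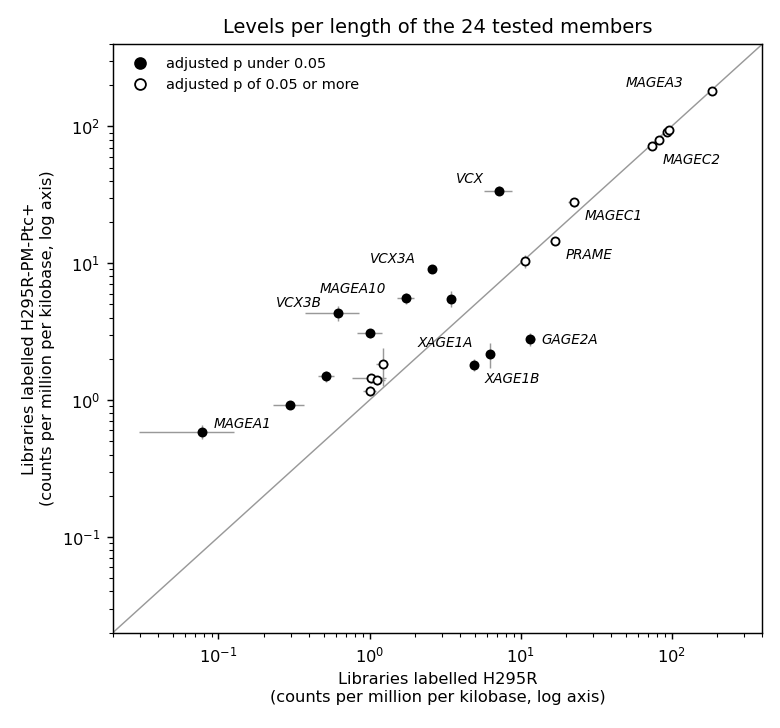
Each point is 1 of the 24 tested members, with its mean level in CPM per kilobase in the 3 H295R-labelled libraries (x, log axis) and in the 3 with the H295R-PM-Ptc+ label (y, log axis), bars giving the SD, the line marking equal levels and filled points an adjusted p under 0.05. The abundant genes MAGEA3 and MAGEC2 lie on the line, VCX, VCX3A and VCX3B above it and GAGE2A, XAGE1A and XAGE1B below it.

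The comparison of the 2 groups asks how the subpopulation sorted for Ptch1 differs from the line it came from. Of the 24 members with enough counts to be tested, 9 were higher and 3 lower in the libraries with the H295R-PM-Ptc+ label at an adjusted p under 0.05, that is 37.5% and 12.5% of the tested members, while 2.42% of all 16710 tested genes were called higher and 1.32% lower. These shares count near-identical copies as separate genes. The 9 include the 4 VCX genes, and the 3 include XAGE1A and XAGE1B, none of whose exon stretches occurs once in the genome. The shares are therefore not shares of independent measurements. The median log2 fold change of the 24 was 0.31, against 0.00094 over all tested genes. The counts of the groups did not overlap, in CPM, for 17 of the 24 members, including all 12 called ones, and for 23.5% of all tested genes. One member, MAGEA1, passed the filter on low counts through the libraries with the H295R-PM-Ptc+ label alone, so it had to be high there to be tested at all, and its call adds no weight to the count of 9. The total over all 70 members was 1333 ± 46.8 CPM and 1364 ± 51.5 CPM, with overlapping groups.

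**Figure D3:**
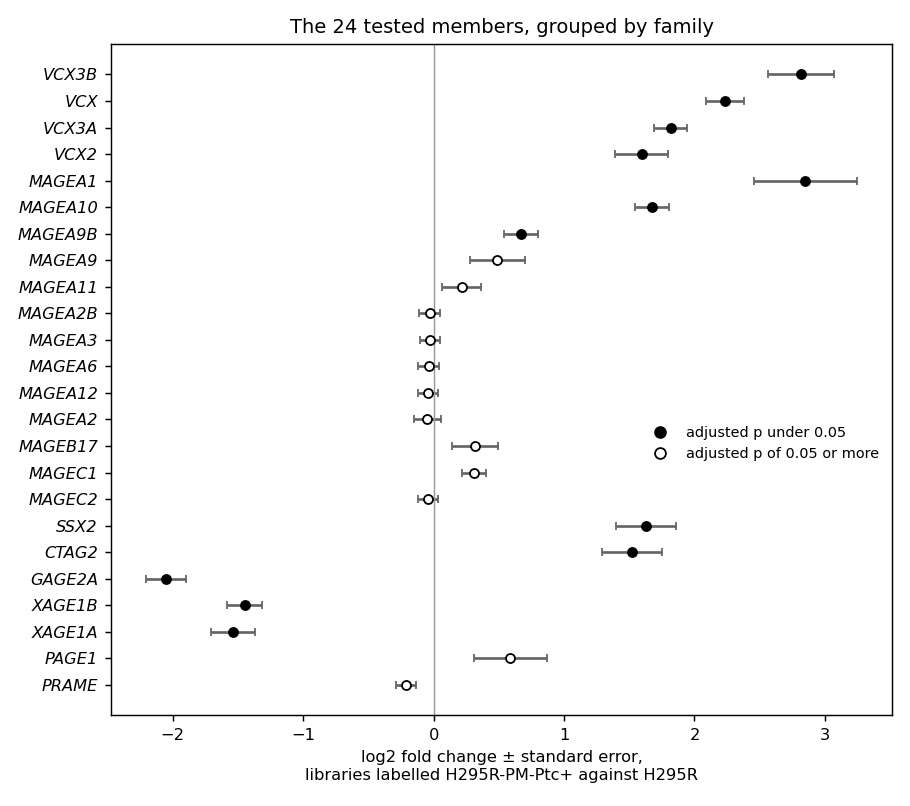
Points show the log2 fold change of the libraries with the H295R-PM-Ptc+ label against those with the H295R label (x) for the 24 tested members, ordered by family, with bars of 1 standard error and filled points for an adjusted p under 0.05. The 4 VCX genes lie between 1.60 and 2.82, the 5 abundant MAGEA genes near 0, and GAGE2A, XAGE1A and XAGE1B between -2.05 and -1.45.

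All 4 VCX genes rose. They belong to a family with copies on both sex chromosomes that is transcribed in male germ cells, and all 4 lie near the tip of the short arm of the X chromosome. VCX (chrX:7842262-7844143, plus strand) had 218, 150 and 194 counts in the H295R-labelled libraries and 906, 829 and 894 in those with the H295R-PM-Ptc+ label, a log2 fold change of 2.23 (SE 0.146, adjusted p = 3.3e-04). VCX3A (chrX:6533618-6535118, minus strand) had 65, 63 and 62 against 245, 214 and 209 counts, a change of 1.82 (SE 0.126, adjusted p = 3.5e-04). Every library labelled H295R-PM-Ptc+ thus held over 3 times as many VCX3A counts as any labelled H295R. VCX3B (chrX:8464830-8466510, plus strand), the copy with the longest repeat, went from 24, 11 and 18 counts to 120, 119 and 135 (2.82, SE 0.252, adjusted p = 7.7e-04). VCX2 (chrX:8169944-8171267, minus strand), the copy with the shortest repeat, went from 24, 18 and 19 counts to 64, 58 and 62 (1.60, SE 0.203, adjusted p = 0.0034). Because only 22.0% to 38.4% of their exon stretches occur once in the genome, the 4 genes cannot be taken as 4 separate measurements. Their sum, to which VCX gave most of the counts, went from 331, 242 and 293 to 1335, 1220 and 1300 counts, a 4.47-fold higher CPM.

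Within MAGEA, 3 of the less abundant genes rose, while the 5 abundant ones did not pass the test. MAGEA10 (chrX:152133310-152138578, minus strand) had 103, 141 and 131 counts in the H295R-labelled libraries and 453, 374 and 361 in those with the H295R-PM-Ptc+ label, a log2 fold change of 1.67 (SE 0.130, adjusted p = 3.9e-04). MAGEA1 (chrX:153179285-153183880, plus strand), the first human tumour antigen found through T cells, had 1, 4 and 5 counts against 29, 23 and 22 (2.85, SE 0.396, adjusted p = 0.0055). Reads of both genes can be placed, since nearly all of their exon stretches are found once in the genome, but MAGEA1 was tested only for its counts in the group where it is high. MAGEA9B, here the copy at chrX:149781930-149787737 on the plus strand, had 153, 168 and 145 counts against 293, 240 and 206 (0.67, SE 0.131, adjusted p = 0.0276), and its adjusted p lay between 0.0523 and 0.124 in 5 of the 6 fits without 1 library, those without H295R replicate 2 or 3 or without any 1 of the H295R-PM-Ptc+ replicates. RefSeq gives the name MAGEA9 to this copy and MAGEA9B to the one named MAGEA9 in the count table. The 2 copies shared 90.5% of the exon stretches of MAGEA9B, MAGEA9 itself did not pass the test (0.49, SE 0.211, adjusted p = 0.277), and their sum was 204 counts in each H295R-labelled library and 368, 303 and 272 in the others, 1.54-fold higher in CPM.

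MAGEA2, MAGEA2B, MAGEA3, MAGEA6 and MAGEA12 had log2 fold changes of -0.05 to -0.03, with adjusted p of 0.840 to 0.914. Their summed level was 919 ± 40.4 CPM in the H295R-labelled libraries and 898 ± 45.6 CPM in those with the H295R-PM-Ptc+ label, and the groups overlapped. The estimate for MAGEA3 was -0.03 with an SE of 0.0773, a smaller error than that of any of the 12 called members (0.126 to 0.396), and MAGEA12, 94.2% of whose exon stretches occur once, gave -0.04 (SE 0.0747). MAGEA11, a coregulator of the androgen receptor, gave 0.22 (SE 0.148, adjusted p = 0.523). Among members under the filter, MAGEA4 had 3, 3 and 2 counts against 10, 9 and 9, and these do not overlap.

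MAGEC1, MAGEC2, MAGEB17 and PRAME did not pass the test with group as the only term. MAGEC2, a partner of TRIM28 like MAGEA3, was level at 148 ± 5.37 CPM and 144 ± 7.91 CPM (log2 fold change -0.04, SE 0.0752). MAGEC1 was 96.1 ± 7.67 CPM and 119 ± 9.65 CPM (0.31, SE 0.0920, adjusted p = 0.114). PRAME (chr22:22547701-22559361, minus strand), an inhibitor of retinoic acid receptor signalling, was 113 ± 7.55 CPM and 97.7 ± 2.35 CPM (-0.21, SE 0.0764, adjusted p = 0.192). MAGEC1 and PRAME were the exceptions to this outcome when the replicate number entered the model as a block, with adjusted p of 1.2e-04 and 0.0041, which brought the called members to 14 while 22.5% of all tested genes were called in that fit. MAGEB17 gave 0.32 (SE 0.176, adjusted p = 0.416).

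**Figure D4:**
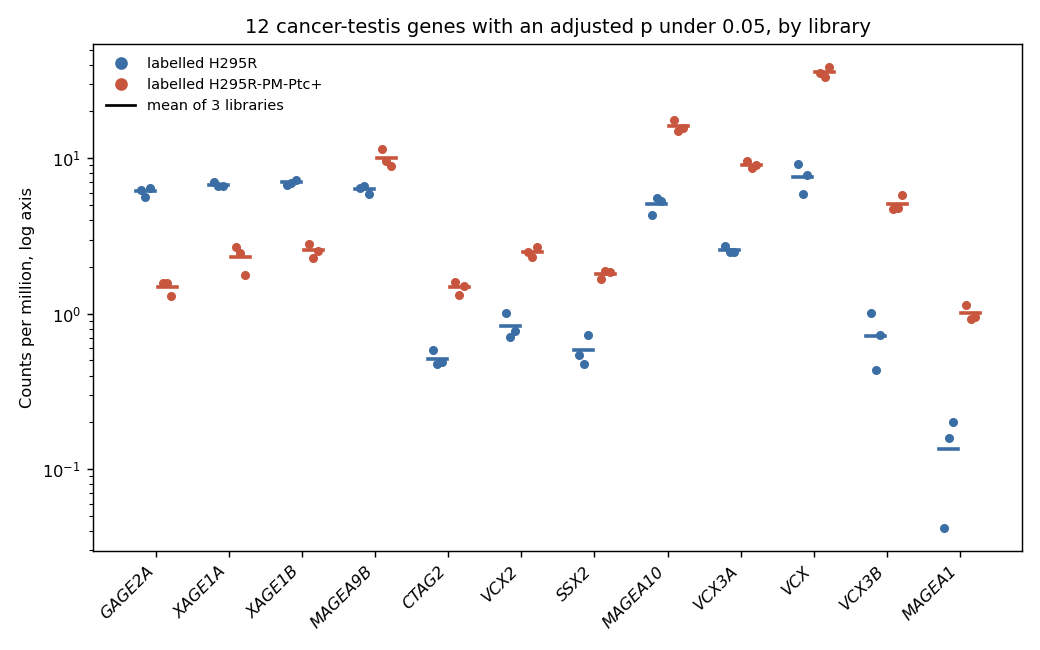
Points are the CPM (log axis) of the 12 members with an adjusted p under 0.05 in each of the 3 H295R-labelled libraries (blue) and the 3 with the H295R-PM-Ptc+ label (red), with lines at the group means and genes ordered by fold change. In each gene the 2 groups do not overlap, with GAGE2A, XAGE1A and XAGE1B lower and the other 9 higher in the libraries with the H295R-PM-Ptc+ label.

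SSX2 and CTAG2 rose at low levels. SSX2 (chrX:52644567-52707189, minus strand), a fusion partner of SS18 in synovial sarcoma, had 13, 12 and 18 counts in the H295R-labelled libraries and 43, 47 and 43 in those with the H295R-PM-Ptc+ label (log2 fold change 1.63, SE 0.231, adjusted p = 0.0062). Its copy SSX2B, under the filter, had 3, 1 and 1 counts against 9, 7 and 7, and the pair together had 16, 13 and 19 against 52, 54 and 50, a 3.26-fold higher CPM. In the annotation used for counting, SSX2 overlaps SSX7 on the same strand, and any fragments on exons of both were not counted. CTAG2 (chrX:154651972-154653579, minus strand), which encodes the antigen LAGE-1, had 14, 12 and 12 counts against 41, 33 and 35 (1.52, SE 0.229, adjusted p = 0.00845). Without H295R replicate 3 the adjusted p of CTAG2 was 0.0544. The part of CTAG2 shared with another member, 38.5% of its exon stretches, was shared with CTAG1B.

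XAGE1A and XAGE1B fell. These are copies of the gene for the tumour antigen XAGE-1 in opposite orientation. XAGE1A (chrX:52495676-52500812, plus strand) had 167, 168 and 164 counts in the H295R-labelled libraries and 69, 61 and 41 in those with the H295R-PM-Ptc+ label, a log2 fold change of -1.54 (SE 0.167, adjusted p = 0.0015). XAGE1B (chrX:52512077-52520803, minus strand) had 160, 177 and 180 against 72, 57 and 59 counts (-1.45, SE 0.137, adjusted p = 9.5e-04). All of the exon stretches of XAGE1A occur in XAGE1B, so the near-equal counts cannot be taken as separate measurements of the copies. Their sum went from 327, 345 and 344 to 141, 118 and 100 counts, 2.82-fold lower in CPM.

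GAGE2A fell, the only GAGE gene with enough counts to be tested. GAGE2A (chrX:49589529-49596827, plus strand) had 150, 144 and 160 counts in the H295R-labelled libraries and 40, 39 and 30 in those with the H295R-PM-Ptc+ label, a log2 fold change of -2.05 (SE 0.155, adjusted p = 3.9e-04). GAGE2E, under the filter, had 15, 10 and 16 against 4, 2 and 6 counts, and the GAGE2A and GAGE2E sum was 4.08-fold lower in CPM. The 8 GAGE12 members together had 20, 12 and 12 counts against 51, 41 and 34, a 2.85-fold higher CPM, and in both sums, which were not tested, the groups did not overlap. GAGE1 had 2, 0 and 1 counts against 19, 7 and 6. In the annotation used for counting, GAGE1 spans GAGE2A, and fragments on exons of both were not counted. Without the filter on low counts, GAGE1 (adjusted p = 0.0062) and GAGE2E (adjusted p = 0.0354) passed the test as well, with log2 fold changes of 3.26 and -1.74, in a fit that called 3.59% of all genes, but neither passed with DESeq2 (adjusted p = 0.0514 and 0.150), and the GAGE12 members that these fits tested did not pass, with a lowest adjusted p of 0.0658 without the filter and 0.260 with DESeq2. GAGE2A shares 72.8% of its exon stretches with GAGE12F, and its printed promoter window is the one that occurs unchanged in the GAGE12 genes listed above.

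**Figure D5:**
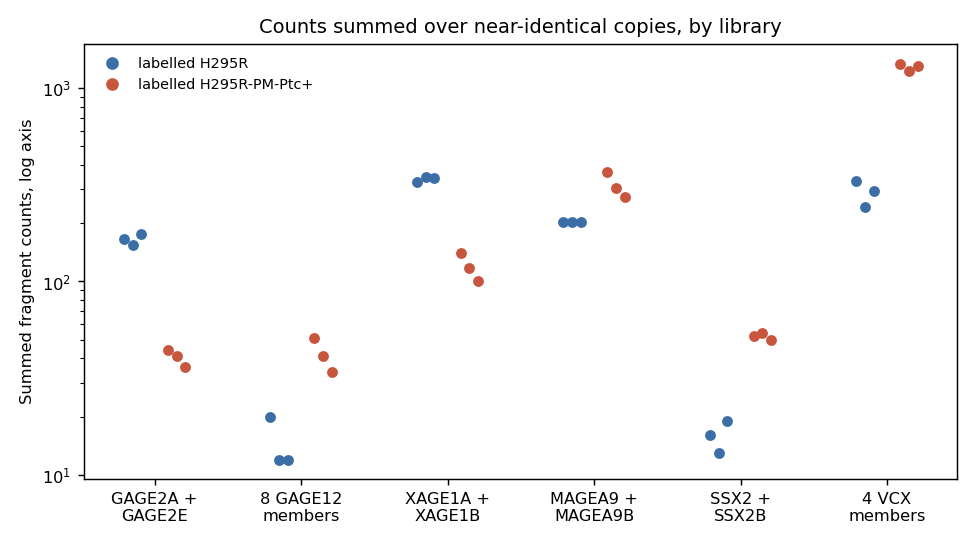
Points are fragment counts (log axis) summed over near-identical copies in each of the 3 H295R-labelled libraries (blue) and the 3 with the H295R-PM-Ptc+ label (red). The groups do not overlap in any of the 6 sums, which are lower in the libraries with the H295R-PM-Ptc+ label for GAGE2A with GAGE2E and for XAGE1A with XAGE1B, and higher for the other 4.

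The remaining members were few in counts. PAGE1, the highest PAGE gene, had 0.811 ± 0.0766 CPM and 1.22 ± 0.380 CPM with overlapping groups (log2 fold change 0.59, SE 0.280, adjusted p = 0.328). Of the 21 members that were detected but not tested, whose highest count was 24, the CPM of the libraries with the H295R-PM-Ptc+ label lay wholly above those with the H295R label in 6 and wholly below in 4. Among all 4931 genes over 3 counts in a library that were not tested, 14.2% were without overlap. Those genes were not matched to the members in their counts. None of the 21 was tested with the filter in place, and lack of overlap alone shows no change, since an exact permutation test of 3 against 3 libraries cannot give a p below 0.1.

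The nearest tested genes on either side of the called members were compared in the same fit, since position was not used to choose the members. The 12 called members had 17 distinct nearest tested neighbours outside the families. These neighbours lay from 3.70 kb (AF277315.10 from CTAG2) to 1292 kb (TBL1X from VCX2) away, so they need not be adjacent genes. Of these 1 was called, and was lower, and their median log2 fold change was -0.09, with a range of -3.01 to 0.18, while 2.90% of the 620 tested X-linked genes outside the families were called in either direction. It was NLGN4X, a synaptic adhesion gene 305 kb from VCX3A, with 104, 109 and 99 counts in the H295R-labelled libraries and 4, 15 and 19 in those with the H295R-PM-Ptc+ label, a log2 fold change of -3.01 (adjusted p = 0.00197) opposite in direction to that of VCX3A. The neighbours nearest to VCX were STS, the steroid sulfatase gene (log2 fold change -0.12, adjusted p = 0.743), and PNPLA4 (-0.07, adjusted p = 0.795). With the replicate block, 4 of the 17 neighbours were called, in a fit that called 22.5% of all tested genes.

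Other genes of this biology were read from lists, beside which stand the shares of all tested genes that were called, 2.42% higher and 1.32% lower with group as the only term and 22.5% in either direction with the replicate block. In the type II MAGE genes, which are expressed broadly and are not cancer-testis genes, 1 of 11 tested was higher, MAGEL2 of the imprinted Prader-Willi region (log2 fold change 0.65, adjusted p = 0.0249), with 1 higher and 2 lower under the replicate block. None of 12 tested X-linked cancer-testis genes of other families, such as CSAG1 (0.02, adjusted p = 0.944), was called by edgeR, DESeq2 or limma-voom, while 2 had an unadjusted p under 0.05 and 2 were called with the block. Among 15 tested autosomal cancer-testis and germline genes, 1 was higher, STK31, which encodes a tudor domain kinase of germ cells (1.02, adjusted p = 0.0025), with 117, 141 and 113 counts against 275, 245 and 227, and the block called 5. Of 39 tested genes for DNA methylation and for repression of germline genes, 1 was higher: TRIM28, the corepressor bound by MAGEA3 and MAGEC2 (0.49, adjusted p = 0.0249), and the block called 3. DNMT1, the maintenance methyltransferase, gave 0.07 (SE 0.121, adjusted p = 0.844), and UHRF1, which brings it to newly copied DNA, gave -0.05 (SE 0.147, adjusted p = 0.912). TRIM28 was also the only called gene among 11 tested partners of MAGE and PRAME proteins. Neither TRIM28 nor MAGEL2 kept its call in the fits without H295R replicate 2 or 3 or without H295R-PM-Ptc+ replicate 2 or 3, where their adjusted p lay between 0.0530 and 0.125.

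Markers of the tissue of origin were read in the same way. Of 13 tested adrenal cortex markers, whose median log2 fold change was 0.0060, 3 were higher in the libraries with the H295R-PM-Ptc+ label, namely CYP21A2, the steroid 21-hydroxylase (log2 fold change 0.88, adjusted p = 0.0067), SCARB1, the receptor for high-density lipoprotein (0.63, adjusted p = 0.0035), and SULT2A1, a steroid sulfotransferase (0.60, adjusted p = 0.0306). GATA6, a transcription factor of the adrenal cortex, was lower (-0.53, adjusted p = 0.0348). In 5 of the 6 fits without 1 library, all but that without H295R replicate 1, GATA6 and SULT2A1 were not called (adjusted p of 0.0617 to 0.145). The summed level of the 15 listed markers was 1827 to 2158 CPM and 2416 to 2684 CPM. The part of these shifts in the changes of the cancer-testis genes was not tested.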

How the data were processed

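RNA from H295R and H295R-PM-Ptc+ cells was sequenced in 3 libraries each. The authors mapped paired reads of 75 bases to hg38 with STAR 2.4.0a and deposited raw fragment counts per gene name, made with featureCounts of Subread on an Ensembl annotation, counting a read with several mapping positions at the primary one and leaving out fragments on more than 1 gene. The submitters' processing notes give Subread 1.5.0-p3, whereas the methods of the study give another version. The methods name a stranded mRNA kit and the labels a stranded total RNA kit with polyA RNA. These counts were neither normalised nor filtered, and 1 row without a gene name, with 0 counts, was left out.

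Counts were tested with edgeR 4.0.16 in R 4.3.3 (TMM factors, filterByExpr, quasi-likelihood test, two-sided, group as the only term) over all 16710 genes that passed the filter, with Benjamini-Hochberg adjustment and a call at an adjusted p under 0.05. CPM used TMM-scaled library sizes, and errors of means are SDs. A gene with no library over 3 counts was taken as not detected. This limit covers counting error only. Same-numbered replicates shared variation across the groups: their deviations from the group means correlated at 0.594, 0.405 and 0.325 over genes, against -0.443 to 0.211 for other numbers. The main fit, with group as the only term, does not take this into account. The methods state no pairing, so the replicate number entered the model only in an alternative fit, as a block. Other alternatives were DESeq2 1.42.0, limma-voom (limma 3.58.1), RLE size factors, 2 other filters and leaving out each library. Named genes were all called members, the highest tested member per kilobase of each family, PRAME, CTAG1B, CTAG2 and called genes of the other lists, and further genes were chosen after their values were seen. The members and lists were chosen with earlier results of these data known.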

Additional observations from a re-analysis of the deposited data

How the results depend on the processing

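With replicates that may share a culture and many near-identical copies, these counts limit what can be said of single copies, and the filter kept genes under about 10 counts per library out of the test. Among all genes, 404 were higher and 220 lower. Without a filter on low counts these were 698 and 413, and with the replicate block 2028 and 1730. Leaving out 1 library gave 161 to 529 higher and 57 to 281 lower genes. Called members numbered 9 higher and 3 lower, 10 and 4 with the replicate block, and 7 to 9 and 3 without 1 library. Of the 17 named members that were tested, all 17 kept their direction and side of the threshold under DESeq2, limma-voom, RLE size factors, no filter and a mean of at least 10 counts, and 16 did with the replicate block, where PRAME passed. MAGEA9B and CTAG2 lost their calls without some libraries, as given above. The replicate block called 3 type II MAGE genes, 2 other X-linked and 5 autosomal cancer-testis genes (2 without a filter), 3 genes for DNA methylation and repression, 1 leukocyte and stroma marker and 4 neighbours, and beyond PRAME and MAGEC1 it changed no call of a member named here. Without 1 library, the calls ranged from 0 to 1 for type II MAGE genes, for DNA methylation and repression, for MAGE and PRAME partners and for leukocyte and stroma markers, and from 2 to 4 for adrenal markers, and the log2 fold change of PTCH1 from -0.91 to -0.67. The causes of these changes were not tested.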
